A study of Mus musculus with 12 samples.

Results

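H3K9/14ac, the acetylation of lysines 9 and 14 of histone H3 that marks active promoters and enhancers, was examined at 39 genes of proximal T cell receptor signalling, which were chosen by symbol from 21887 protein-coding genes annotated on GRCm38.p6. They comprise 5 receptor and surface genes, 7 kinases, 14 adaptors, exchange factors and other effectors, 9 genes of the calcium and NFAT branch and 4 brakes. All tested regions over each gene span or within 5 kb of it were taken, 290 of the 40909 regions in the authors' deposited table, and 57 of these lay within 2 kb of a gene end. The cells were mouse CD4+ T helper 17 (Th17) cells, the IL-17-producing helper lineage, made from naive T cells of C57BL/6 mice by 3 days of polarising culture. Cells of both genotypes were then restimulated for 3 h with PMA and ionomycin, together with Bref A and Monensin. The wild type (WT) was compared with Slc2a3-fl/fl Cd4-cre cells (KO), in which a recombinase expressed from the Cd4 promoter deletes the gene for the glucose transporter GLUT3 in T cells. There were 3 ChIP libraries per genotype. Nuclei of 6 samples were barcoded and pooled before the immunoprecipitation (RELACS). The sources used here do not say whether the libraries of a genotype come from separate mice or whether WT cells carry Cd4-cre, so the spread between libraries may be technical.

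As background, the T cell receptor has no kinase of its own. The kinases Lck and Fyn phosphorylate the CD3 and zeta chains, ZAP-70 docks there and phosphorylates the scaffold proteins LAT and SLP-76, and these assemble adaptors and phospholipase C gamma. The second messengers diacylglycerol and calcium then activate protein kinase C theta and RasGRP1 on one arm and calcineurin and NFAT on the other. PMA mimics diacylglycerol and ionomycin raises calcium, so the restimulation used here bypasses the receptor and its nearest kinases.

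The data as a whole set the level against which the 39 genes are read. Of all tested regions, 18934 were lower and 5194 higher in KO at an FDR under 0.05 by the authors' deposited table, with a median log2 fold change of -0.62. Mean coverage, in fragments and recovered from the peak lists, was 2.97 to 3.99 in the WT libraries and 1.85 to 2.29 in the KO libraries, and the lists held 40997 to 43507 and 39264 to 40582 peaks. KO replicate 3 had 11 peaks on chromosome Y against 1 or 2 in every other library. Its values touch Was, the X-linked member. The Th17 genes Il17a, Il17f, Rora and Il23r carried peaks in every WT library. Over 7 Th17 genes the peaks covered 185705 to 214357 bp in WT and 73756 to 91678 bp in KO libraries. No peak was found at Cd8a, Ncr1, Klrb1c, Ms4a1, Lyz2, Hba-a1 or Hbb-bs in any library. Some other-lineage genes did carry peaks. The 5 CD8 T and NK genes summed to 3183 to 4107 bp in WT and 1611 to 2210 bp in KO, 5 B cell genes to 8264 to 9610 and 5840 to 7697 bp, 5 myeloid genes to 13728 to 15022 and 8009 to 9917 bp, and 4 erythroid genes to 2081 to 3204 and 1336 to 1787 bp. The part of such cells in the results was not tested, and in bulk chromatin fewer cells with a mark and less mark per cell cannot be told apart.

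Proximal receptor signalling genes were called lower in H3K9/14ac at their ends and in both directions inside. Of the 290 regions, 124 (42.8%) were lower and 24 (8.28%) higher in KO by the authors' deposited table, against 45.9% and 12.1% of the 29615 regions within 5 kb of any protein-coding gene. The median log2 fold change of the members' regions was -0.59, beside -0.62 for those 29615, from the authors' deposited table. The share was therefore near the background for the gene group as a whole. At gene ends, 41 of 57 regions (71.9%) were lower and 0 higher by the authors' deposited table, where 55.4% and 6.18% of all 13148 gene-end regions were, with medians of -0.85 and -0.73. Away from the member's own ends, 83 of 233 regions were lower and 24 higher by the authors' deposited table (35.6% and 10.3%). Of 16467 regions near genes but at the end of none, 38.4% were lower and 16.8% higher. The member set can hold ends of neighbouring genes, so the sets are not defined alike. All 24 higher regions thus lay away from the ends of the members' own spans. Lower regions had a median width of 1500 bp and higher ones of 600 bp. Of the 39 genes, 38 had at least 1 lower region and 13 had both lower and higher regions by the authors' deposited table. No share over all genes was taken for these counts, which rise with the number of regions per gene. They thus give no comparison with other genes. Nck1, which links the receptor to the actin cytoskeleton, had 1 region, and it was not called.

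**Figure D1:**
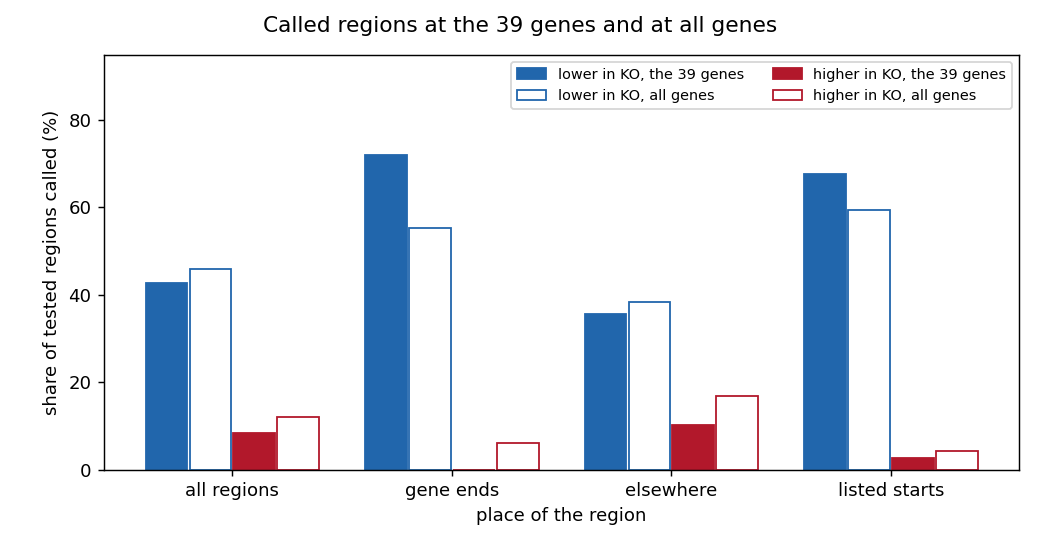
Share of tested regions called lower (blue) or higher (red) in KO at an FDR under 0.05 by the authors' deposited table, for the 39 genes (filled bars) and for all protein-coding genes (open bars), by place of the region. At gene ends 71.9% of the members' regions were lower and 0 higher, and away from them 35.6% were lower and 10.3% higher. Elsewhere means away from the member's own ends in the filled bars and away from the ends of every gene in the open bars.

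**Figure D2:**
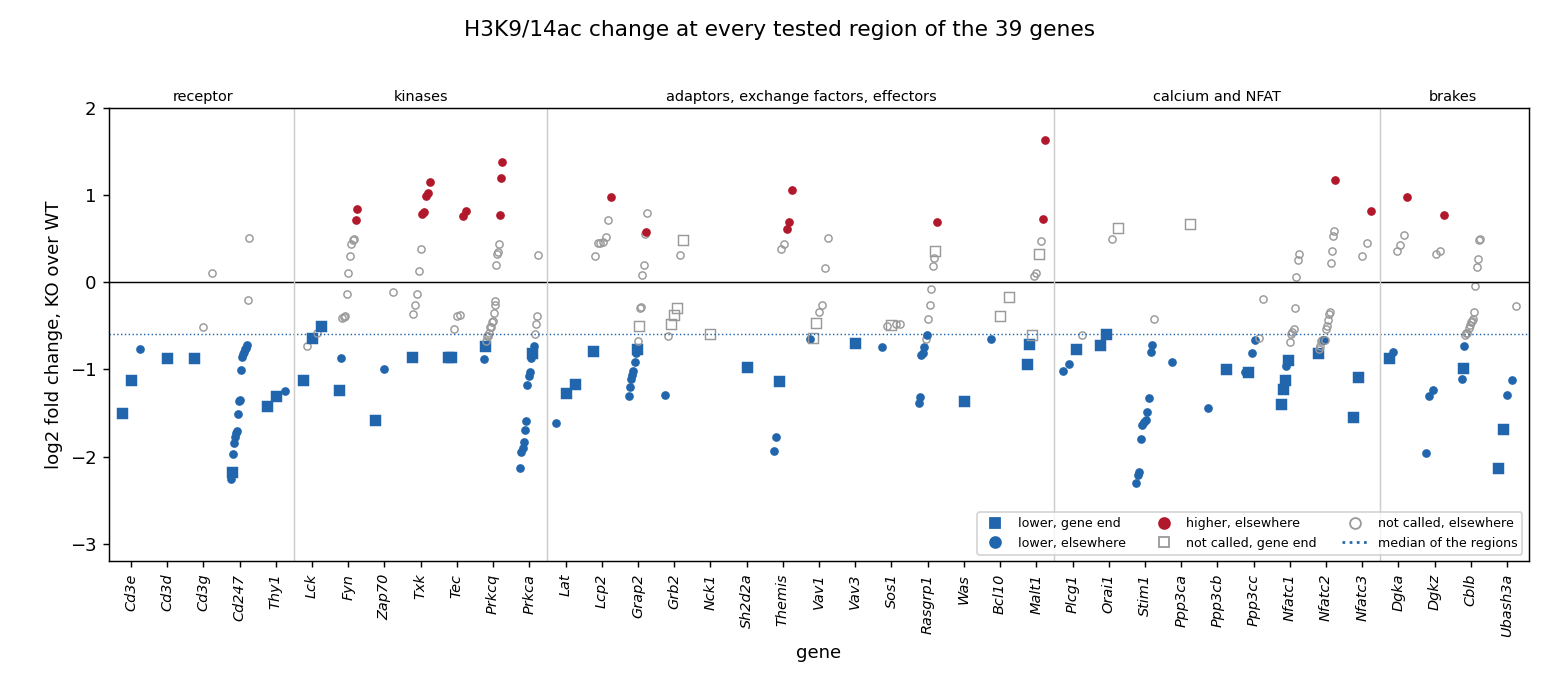
Log2 fold change (KO over WT) of every tested region by the authors' deposited table, by gene and role; squares lie within 2 kb of a gene end, circles elsewhere, and a region shared by 2 genes is drawn at each. The filled red points are all circles, and Cd247, Prkca, Stim1 and Ubash3a reach below -2.

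When each gene was represented by its gene-end region of lowest FDR, a choice that favours changed regions, 30 of the 37 genes with such a region were lower and 0 were higher by the authors' deposited table. The background was 64.3% lower and 6.4% higher of 11625 genes. The 7 that were not called were Grb2, Nck1, Vav1, Sos1, Rasgrp1 and Bcl10 among the adaptors and effectors, and Ppp3ca in the calcium branch. Stim1 and Dgkz had no gene-end region, and their listed starts lie inside the annotated span. All 39 genes carried peaks in all 6 libraries, and 37 had a gene-end peak in every WT library and 37 in every KO library. The genes were not the same. In WT, Stim1 had such a peak in replicate 1 only and Dgkz in replicate 3 only. In KO, Nfatc2 had one in replicate 3 only and Stim1 in no library.

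Peak coverage was read in each library as a measure that does not come from the differential table. Over the 39 genes and 5 kb to each side, peaks covered 607127, 600249 and 604506 bp in WT replicates 1 to 3 and 492287, 515843 and 487391 bp in KO replicates 1 to 3. The mean of KO was 0.83 of the WT mean, beside 0.85 for all protein-coding genes. By gene, coverage was larger in every WT than in every KO library at 20 of 39 genes, larger in every KO library at 1 gene, Lcp2, and overlapping at 18. Of 14016 genes with a peak, 41.3% and 6.18% were separated in those directions. For 1 gene, 3 libraries against 3 cannot give an exact permutation p below 0.1. The KO libraries are also the shallower ones, with a mean coverage 0.58 times that of WT, and the part of depth in peak coverage was not tested. With equal numbers of the strongest peaks in each library, 19 genes were separated towards WT and 2 towards KO. The shares of all 13938 genes with a peak were then 40.1% and 6.55%. Without WT replicate 1, the genes separated towards KO were 3 in place of 1, and without WT replicate 2 or KO replicate 2 they were 2. Leaving out a library can only keep or raise such counts.

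**Figure D3:**
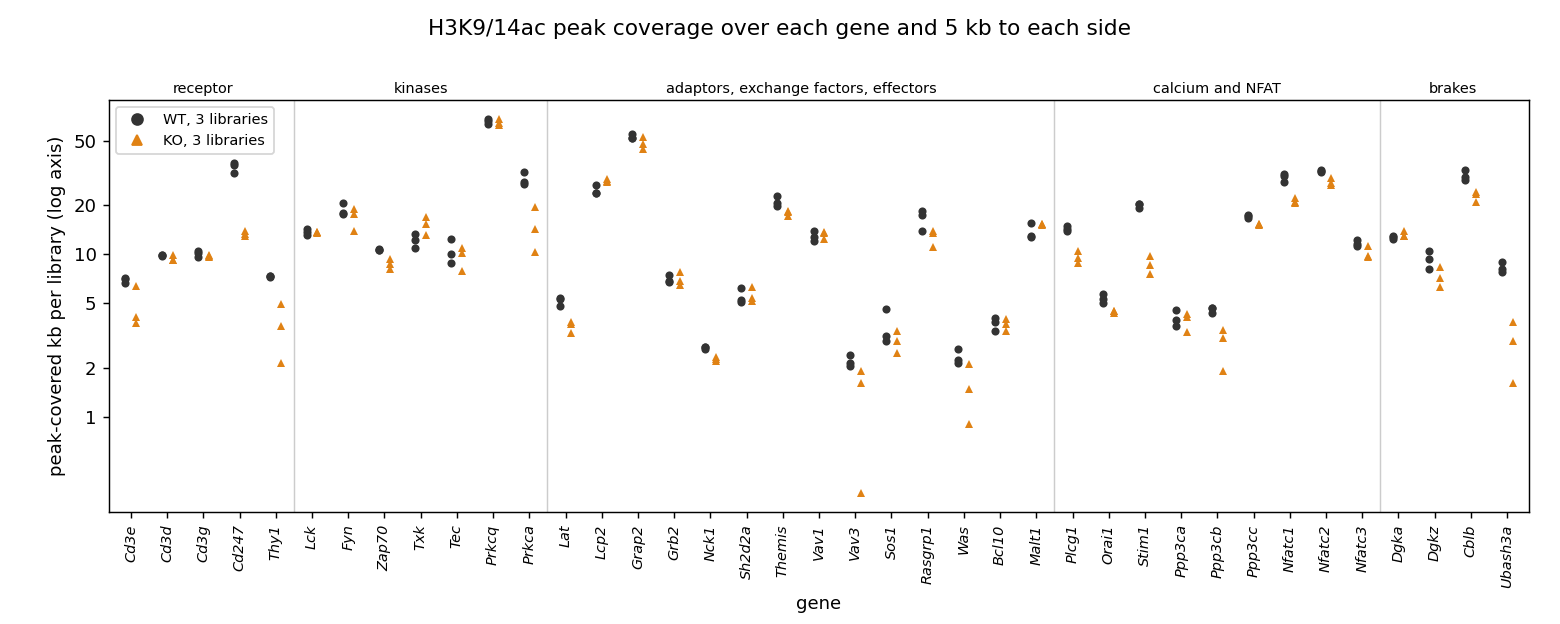
Kilobases covered by peaks over each gene and 5 kb to each side (log axis), 1 point per library, with WT as black circles and KO as orange triangles. The groups do not overlap at 21 genes, with KO above WT at Lcp2 and WT above KO at the other 20.

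Cd247, Cd3e and Thy1 were called lower at most or all of their regions, while Cd3d and Cd3g had 1 lower region, which they share. Of the 28 regions of the receptor and surface genes, 24 (85.7%) were lower and 0 higher by the authors' deposited table, 17 of the 24 at Cd247, with a median of -1.19, and all 6 gene-end regions were lower. At all genes, 45.9% of regions were lower and 12.1% higher, and 55.4% of gene-end regions were lower. Cd247, which encodes the CD3 zeta chain that carries most of the receptor's phosphorylation sites, had the most lower regions of any member. Its peaks (chromosome 1, 165779952 to 165871153, GRCm38) covered 31566, 36194 and 35577 bp in WT and 12900, 13910 and 13306 bp in KO replicates 1 to 3. The 2 groups were far apart, with a KO mean of 0.39 of the WT mean (two-sided exact permutation p = 0.1, with n = 3 libraries per genotype). Of 19 Cd247 regions, 17 were lower by the authors' deposited table. The lowest, at 165802051 to 165805500, had -2.25 on the log2 scale (FDR 1.76e-15) by the authors' deposited table. At 4 of its regions a peak was present in every WT library and in none of the KO libraries. Cd3e, a signalling chain of the CD3 complex, covered 6650, 7035 and 7197 bp in WT and 3762, 6376 and 4139 bp in KO libraries, without overlap. All 3 of its regions were lower, and the lowest had -1.50 by the authors' deposited table. Cd3d and Cd3g are divergent neighbours that share 1 region (44977951 to 44987700) with a value of -0.87 (FDR 0.00195) by the authors' deposited table. That was the only region tested at Cd3d, and the other 2 regions of Cd3g were not called. At 1 of those, in the flank, summit height over the mean coverage of the library (coverage scaling) was higher in every KO library. The authors' fold changes lie 0.30 lower than that scaling on the log2 axis. Coverage overlapped between genotypes at both genes, with a KO mean of 0.96 of the WT mean at each. Thy1, a surface glycoprotein of T cells, had 3 of 3 regions lower, from -1.42 to -1.25 by the authors' deposited table. Its peaks covered 7216, 7389 and 7310 bp in WT and 3615, 2141 and 4933 bp in KO libraries.

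The kinase genes differed among themselves. Of 74 regions 23 were lower and 12 higher by the authors' deposited table (31.1% and 16.2%, beside 45.9% and 12.1% at all genes), with a median of -0.40. All 9 gene-end regions were lower, beside 55.4% of those of all genes. Prkca, which encodes protein kinase C alpha, had 12 of 16 regions lower and 0 higher by the authors' deposited table. Its peaks (chromosome 11, 107933387 to 108343888) covered 27002, 32128 and 27895 bp in WT and 19581, 14342 and 10277 bp in KO libraries, so that every KO library was below every WT library. The lowest Prkca region, at 108198901 to 108199200, had -2.13 (FDR 2.66e-07) by the authors' deposited table, and peaks in 3 WT and 0 KO libraries. Zap70, the kinase that docks on the phosphorylated receptor, had 2 of 3 regions lower, and its start region (chromosome 1, 36759601 to 36768900) had -1.59 (FDR 1.41e-09) by the authors' deposited table. Lck, which phosphorylates the receptor chains, had 3 of 5 regions lower, from -1.12 to -0.50, by the authors' deposited table. The lowest of these also overlaps Fam167b. The Lck region at 129567151 to 129574650, which holds a start, had -0.64 by the authors' deposited table, with 2 of 50 windows up and 5 down. Its summits were 114, 137 and 141 times the mean coverage in WT and 135, 160 and 142 times in KO, and overlapped. Peak coverage of Lck overlapped between genotypes as well.

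Prkcq, Txk and Tec had lower regions at the start and higher ones further in by the authors' deposited table. On coverage scaling, their start summits overlapped between genotypes. Prkcq, which encodes protein kinase C theta, had 20 regions, the most of any member, with 2 lower and 3 higher by the authors' deposited table. Its start region (chromosome 2, 11167951 to 11183100) had -0.73 (FDR 0.0178), while regions at 11230801 to 11234700 and 11282251 to 11284500 had 1.20 (FDR 1.63e-07) and 1.39 (FDR 1.18e-06) by the authors' deposited table. At the first of these inner regions, summit height over the mean coverage of the library was 24.3, 27.9 and 29.6 in WT and 55.2, 72.2 and 65.0 in KO replicates 1 to 3. All KO libraries were thus above all WT libraries there. At the start region the same measure was 86.5, 103 and 95.6 in WT and 99.0, 108 and 122 in KO libraries, and overlapped. The call there was thus not seen in the summits on this scaling, which differs from that of the authors' fold changes. Over the whole gene, coverage was 66119, 63628 and 67788 bp in WT and 62163, 68297 and 63760 bp in KO, and overlapped. Txk, a Tec family kinase of T cells, had 1 lower and 5 higher regions of 11 by the authors' deposited table. The lower one (chromosome 5, 72750751 to 72754050, -0.85, FDR 0.000891 by the authors' deposited table) holds the upstream start of Txk and lies within 2 kb of the far end of Tec. Its summits were 79.2, 65.5 and 81.5 times the mean coverage in WT and 47.6, 50.3 and 73.8 times in KO, with KO replicate 3 inside the WT range. The 5 higher regions lay between 72731701 and 72743250, with values of 0.79 to 1.15 by the authors' deposited table. Of these, the one with 1.15 (72742801 to 72743250) had a peak in 0 WT and 3 KO libraries, the only such region of the 290. Coverage of Txk was 13373, 12296 and 10898 bp in WT and 15293, 13064 and 16914 bp in KO, and overlapped. Tec itself had 2 lower and 2 higher regions of 7 by the authors' deposited table, with its own start region at -0.86 and inner regions at 0.82 and 0.76. Summits at that start were 41.4, 47.1 and 42.1 times the mean coverage in WT and 46.5, 42.0 and 43.1 times in KO, and overlapped. Coverage of Tec (72755718 to 72868654) was 10090, 8849 and 12416 bp in WT and 7905, 10974 and 10191 bp in KO libraries, and overlapped. Fyn, the Src family partner of Lck, had 2 lower and 2 higher regions of 13 by the authors' deposited table. Its start region (chromosome 10, 39367801 to 39372600) had -1.24 (FDR 3.49e-05) and the inner region at 39417751 to 39418500 had 0.84 (FDR 0.00298) by the authors' deposited table. Coverage of Fyn was 20546, 17773 and 17952 bp in WT and 17644, 19079 and 13892 bp in KO, and overlapped.

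**Figure D4:**
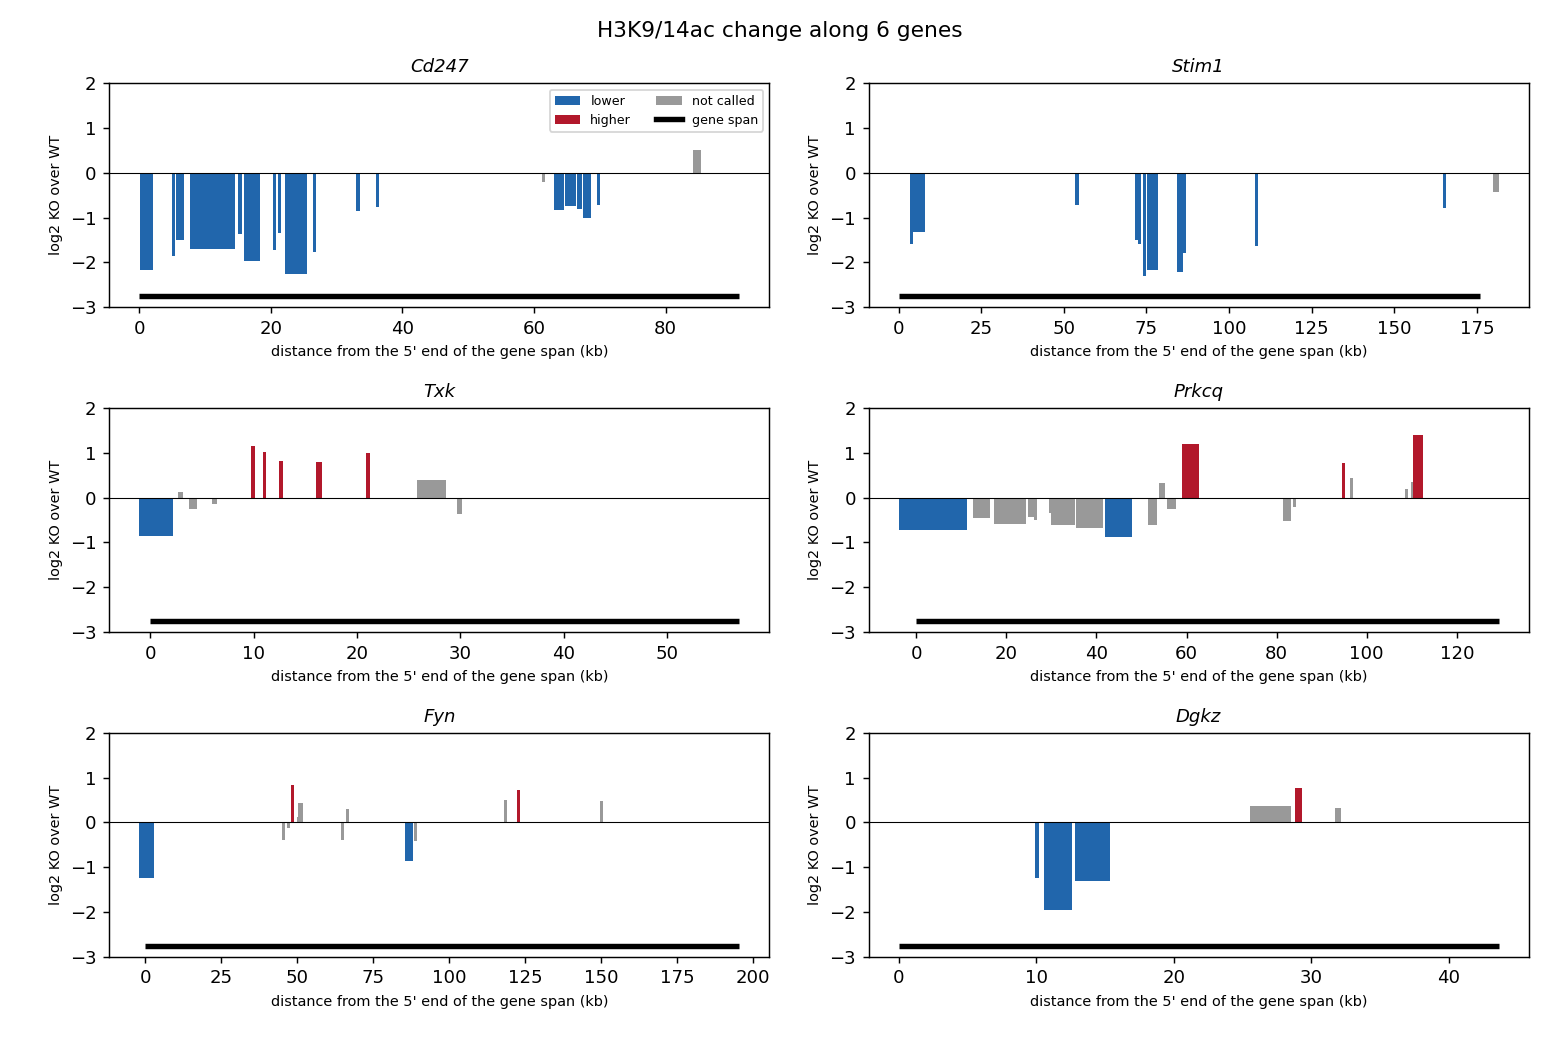
Log2 fold change (KO over WT, height of each block, from the authors' deposited table) of the tested regions along 6 genes, against distance from the 5′ end of the gene span in kb; blue is lower, red higher and grey not called at an FDR of 0.05. Cd247 and Stim1 show lower regions only among those called, while Txk, Prkcq and Dgkz have lower regions towards the start and higher ones further in, and lower and higher regions alternate along Fyn.

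The adaptors, exchange factors and other effectors held most of the gene ends that were not called. Of 85 regions 30 (35.3%) were lower and 8 (9.41%) higher by the authors' deposited table, beside 45.9% and 12.1% at all genes, with a median of -0.47. Of 24 gene-end regions 10 were lower, beside 55.4% of those of all genes. Lat, the membrane scaffold phosphorylated by ZAP-70, was lower at 3 of 3 regions, from -1.62 to -1.16, by the authors' deposited table, and 2 of these also overlap Spns1. Coverage of Lat was 4797, 5333 and 5381 bp in WT and 3751, 3814 and 3297 bp in KO libraries, without overlap. Lcp2 encodes SLP-76, the cytosolic partner of LAT, and was the member with more coverage in every KO library. Its peaks (chromosome 11, 34046928 to 34092281) covered 23683, 23733 and 26698 bp in WT and 28071, 27774 and 29178 bp in KO replicates 1 to 3. The mean of KO was 1.15 times the WT mean (two-sided exact permutation p = 0.1, with n = 3 libraries per genotype). The start region of Lcp2 (34037251 to 34056300) was nonetheless called lower, with -0.79 (FDR 0.0014) by the authors' deposited table, where 21 of its 127 windows went up and 24 down. Summit height there was 161, 170 and 178 times the mean coverage in WT and 196, 206 and 186 times in KO. On coverage scaling the summit was thus higher in every KO library. The authors' fold changes lie 0.30 lower than that scaling on the log2 axis. The inner region at 34064851 to 34066500 had 0.98 (FDR 0.00404) by the authors' deposited table. Of the 8 Lcp2 regions, 1 was lower, 1 higher and 6 not called in that table.

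Grap2, which encodes the adaptor GADS that joins SLP-76 to LAT, had 17 regions, 8 lower and 1 higher by the authors' deposited table. Its lowest region (chromosome 15, 80630101 to 80630550) had -1.30 (FDR 0.000669) by the authors' deposited table. Coverage of Grap2 was 52106, 54763 and 51898 bp in WT and 44667, 52720 and 47404 bp in KO, and overlapped through KO replicate 2. Themis, a protein needed for thymocyte selection, had 3 lower and 3 higher regions of 8 by the authors' deposited table. The inner region at 28693351 to 28696350 of chromosome 10 had -1.93 (FDR 4.67e-14), the start region -1.14 (FDR 8.02e-05) and the region between them at 28677601 to 28678050 had 1.06 (FDR 0.000568) by the authors' deposited table. Lower and higher regions of Themis thus alternated along the gene. Coverage of Themis was 19849, 20670 and 22846 bp in WT and 18118, 18395 and 17181 bp in KO libraries, without overlap. Rasgrp1, the diacylglycerol-activated exchange factor for Ras, had 6 lower and 1 higher of 14 regions by the authors' deposited table, and the lowest (chromosome 2, 117313951 to 117314700) had -1.39 (FDR 1.45e-05). Its start region was not called, with 0.36 (FDR 0.541) by the authors' deposited table, and its summit was 66.9, 74.7 and 66.0 times the mean coverage in WT and 94.7, 102 and 77.9 times in KO. Coverage of Rasgrp1 was 18512, 17543 and 13848 bp in WT and 13845, 13461 and 11048 bp in KO, and WT replicate 3 and KO replicate 1 were 3 bp apart. Malt1, the paracaspase of the CARMA1, BCL10 and MALT1 complex, had 2 lower and 2 higher of 9 regions by the authors' deposited table. Its inner region on chromosome 18 at 65447851 to 65448300 had the highest value of all 290, 1.64 (FDR 1.12e-07) by the authors' deposited table, with peaks in 1 WT and 3 KO libraries. Coverage of Malt1 was 15583, 12897 and 12715 bp in WT and 15460, 15124 and 15297 bp in KO, and WT replicate 1 alone was above the KO range.

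The remaining members of this group had few called regions. Nck1 (chromosome 9, 100494302 to 100546134) had -0.59 (FDR 0.135) at its start by the authors' deposited table, and coverage of 2687, 2687 and 2635 bp in WT and 2270, 2349 and 2222 bp in KO libraries. Those groups did not overlap although the region was not called. Bcl10, the partner of MALT1, had 1 lower of 3 regions by the authors' deposited table, in the flank and also at the end of 2410004B18Rik. Sos1, an exchange factor for Ras, had 1 lower of 5 regions by the authors' deposited table, likewise in the flank. Grb2, the adaptor that carries SOS1, had 1 lower of 7 by the authors' deposited table, in the flank and without a paired-end peak in any library. Vav1, a guanine nucleotide exchange factor, had 1 lower of 7 regions by the authors' deposited table, and its relative Vav3 had 1 of 1. The adaptor gene Sh2d2a had 1 lower of 1, with -0.97, by the authors' deposited table. Was, which encodes the actin regulator WASP, had 1 lower of 1 by the authors' deposited table, with -1.37 (FDR 1.09e-05). Its coverage was 2143, 2240 and 2599 bp in WT and 1492, 2114 and 905 bp in KO libraries, and KO replicate 3 was the lowest. Was is on chromosome X, and the part of KO replicate 3 in this value was not tested, since the table gives no value per library. In coverage, KO replicates 1 and 2 were still below every WT library.

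In the calcium and NFAT branch, 35 of 69 regions (50.7%) were lower and 2 (2.9%) higher by the authors' deposited table, beside 45.9% and 12.1% of all regions near genes. The median was -0.68, and 12 of 14 gene-end regions were lower, beside 55.4% of those of all genes. Stim1, the calcium sensor of the endoplasmic reticulum that opens ORAI1 channels, was lower nearly throughout. Its peaks (chromosome 7, 102261514 to 102437319) covered 20425, 19372 and 20438 bp in WT and 9714, 8633 and 7594 bp in KO replicates 1 to 3, a KO mean of 0.43 of the WT mean without overlap (two-sided exact permutation p = 0.1, with n = 3 libraries per genotype). Of its 12 regions 11 were lower and 0 higher by the authors' deposited table. The region at 102335551 to 102336000 had the lowest value of all 290, -2.31 (FDR 8.52e-06), and the wider one at 102345751 to 102347550 had -2.22 (FDR 2.17e-18) by the authors' deposited table. Orai1, the channel itself, had 2 lower of 4 regions, with -0.72 and -0.59, by the authors' deposited table. Plcg1, which encodes the phospholipase upstream of the calcium rise, had 3 lower of 4, from -1.02 to -0.77, by the authors' deposited table. Its coverage of 14263, 14829 and 13866 bp in WT and 8839, 9497 and 10527 bp in KO libraries did not overlap.

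Calcineurin and NFAT genes were lower at part of their regions. Among the catalytic calcineurin genes, Ppp3cb was lower at 2 of 2 regions, Ppp3cc at 4 of 6 and Ppp3ca at 1 of 2 by the authors' deposited table. The Ppp3ca region at the gene end was not called, with 0.67 (FDR 0.0905) by the authors' deposited table. The regions of Ppp3cb also lie at the ends of Mss51 and Usp54. Nfatc1, a transcription factor that calcineurin sends to the nucleus, was lower at 7 of 15 regions, including all 4 at gene ends, from -1.40 to -0.90, by the authors' deposited table. Nfatc2 had 19 regions, 3 lower and 1 higher by the authors' deposited table. The higher one (chromosome 2, 168540901 to 168542400) had 1.18 (FDR 0.000122) by the authors' deposited table and summits of 11.0, 9.77 and 10.8 times the mean coverage in WT and 22.7, 30.6 and 23.4 times in KO. All KO summits were thus above all WT summits, although Nfatc2 as a whole covered 31991, 32665 and 33146 bp in WT and 27504, 29566 and 26721 bp in KO libraries. Nfatc3 had 2 lower regions at its start, with -1.54 (FDR 1.16e-08) and -1.09 (FDR 1.3e-05), and 1 higher of 0.82 inside, among 5 by the authors' deposited table. The lowest of these (chromosome 8, 106053451 to 106057050) also overlaps Dus2. Coverage of Nfatc3 was 12207, 11570 and 11220 bp in WT and 9803, 11307 and 9636 bp in KO libraries, with KO replicate 2 inside the WT range.

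The brakes on the pathway were called lower at their ends as well. Of their start regions with a summit in every library, only that of Ubash3a was higher in every WT library on coverage scaling. Of 34 regions 12 (35.3%) were lower and 2 (5.88%) higher by the authors' deposited table, beside 45.9% and 12.1% at all genes, with a median of -0.47. All 4 gene-end regions were lower, beside 55.4% of those of all genes. Ubash3a, a phosphatase-like protein that dampens receptor signalling, had 4 of 5 regions lower by the authors' deposited table. Its peaks (chromosome 17, 31207868 to 31259681) covered 7763, 8161 and 8972 bp in WT and 2945, 1608 and 3847 bp in KO replicates 1 to 3. The mean of KO was 0.34 of the WT mean, the lowest ratio among the 39 genes, without overlap (two-sided exact permutation p = 0.1, with n = 3 libraries per genotype). Its start region (31207351 to 31211400) had -2.13 (FDR 2.23e-17) by the authors' deposited table, with all 27 windows going down. The summit there was 44.4, 48.3 and 49.8 times the mean coverage in WT and 16.8, 20.6 and 21.3 times in KO. Cblb, a ubiquitin ligase that limits activation, had 3 lower of 17 regions by the authors' deposited table. Its coverage of 33084, 28518 and 29893 bp in WT and 20996, 24296 and 23617 bp in KO did not overlap. The summits at its start, 86.5, 101 and 105 times the mean coverage in WT and 102, 106 and 93.0 times in KO, did. Dgka and Dgkz encode diacylglycerol kinases, which remove the messenger that PMA mimics. Dgka had 2 lower and 1 higher of 6 regions by the authors' deposited table. Its start region (chromosome 10, 128742001 to 128750250, also over Pym1) had -0.86 (FDR 0.000324) and an inner region at 128731051 to 128732700 had 0.98 (FDR 0.000853) by the authors' deposited table. Start summits were 148, 138 and 143 times the mean coverage in WT and 154, 158 and 144 times in KO, and overlapped. At the inner region the summit was 16.3, 18.1 and 13.1 times the mean coverage in WT and 35.2, 32.8 and 26.0 times in KO, without overlap. Coverage of the whole gene was 12423, 12977 and 12708 bp in WT and 12951, 13857 and 12874 bp in KO, and overlapped. Dgkz had 3 lower and 1 higher of 6 regions by the authors' deposited table. The higher one (chromosome 2, 91947151 to 91947600, 0.77 by the authors' deposited table) had a peak in 0 WT and 1 KO library. Coverage of Dgkz was 10451, 9420 and 8068 bp in WT and 6253, 8337 and 7181 bp in KO, and overlapped.

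Regions that hold a transcription start were then set apart, a reading added after the data were seen. RefSeq lists 48 starts for 33 of the 39 genes, and 37 tested regions hold at least 1 of them. Of these, 25 were lower, 1 higher and 11 not called by the authors' deposited table, where 59.4% of the 8631 start regions of all genes were lower and 4.3% higher. The medians were -0.81 and -0.76. At some genes with starts in several tested regions the call differed between them, as at Dgkz and Txk. Dgkz had -1.96 (FDR 1.97e-10) and -1.30 (FDR 1.23e-05) in the adjoining regions at its upstream start, and 0.36 (FDR 0.581) at its inner start by the authors' deposited table. Txk had -0.85 at its upstream start and 0.79 (FDR 0.0112) at its inner start by the authors' deposited table, so that the inner start was the 1 higher start region. Whether these starts are used in Th17 cells was not tested.

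The 250 bases before a start are shown for the start regions with the lowest values (Ubash3a, Dgkz, Cd247 and Zap70), for Stim1, with 11 of 12 regions lower, and for both starts of Dgkz and Txk, which differ in direction or in the call. They are RefSeq sequences of GRCm38.p6, read 5′ to 3′ on the strand of the gene, and end at the base before the start.
Ubash3a, chr17:31207816-31208065, plus strand: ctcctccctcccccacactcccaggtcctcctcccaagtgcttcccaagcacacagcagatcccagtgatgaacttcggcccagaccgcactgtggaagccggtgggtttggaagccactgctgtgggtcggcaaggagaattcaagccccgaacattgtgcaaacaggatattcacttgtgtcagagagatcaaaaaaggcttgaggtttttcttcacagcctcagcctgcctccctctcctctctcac
Cd247, chr1:165788431-165788680, plus strand: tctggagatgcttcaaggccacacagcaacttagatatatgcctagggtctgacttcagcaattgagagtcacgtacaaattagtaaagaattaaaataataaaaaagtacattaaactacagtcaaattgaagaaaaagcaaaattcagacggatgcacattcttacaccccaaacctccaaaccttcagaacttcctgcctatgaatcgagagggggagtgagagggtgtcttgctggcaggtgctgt
Zap70, chr1:36761548-36761797, plus strand: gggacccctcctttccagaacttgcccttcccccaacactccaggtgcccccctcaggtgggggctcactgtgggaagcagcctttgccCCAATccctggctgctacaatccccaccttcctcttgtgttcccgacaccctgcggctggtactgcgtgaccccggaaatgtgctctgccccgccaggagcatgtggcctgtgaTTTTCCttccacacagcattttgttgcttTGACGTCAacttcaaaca
Stim1, chr7:102267569-102267818, plus strand: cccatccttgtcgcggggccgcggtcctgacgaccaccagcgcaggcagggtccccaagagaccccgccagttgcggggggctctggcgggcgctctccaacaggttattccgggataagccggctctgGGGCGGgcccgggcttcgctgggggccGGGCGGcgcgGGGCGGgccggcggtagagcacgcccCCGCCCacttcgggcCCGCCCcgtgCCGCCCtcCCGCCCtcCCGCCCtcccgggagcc
Dgkz upstream start, chr2:91963564-91963813, minus strand: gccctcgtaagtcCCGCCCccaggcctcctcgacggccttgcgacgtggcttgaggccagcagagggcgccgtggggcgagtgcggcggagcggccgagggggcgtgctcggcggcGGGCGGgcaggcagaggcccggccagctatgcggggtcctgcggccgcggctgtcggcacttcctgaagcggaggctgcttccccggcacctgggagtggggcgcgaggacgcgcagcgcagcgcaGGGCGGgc
Dgkz inner start, chr2:91950349-91950598, minus strand: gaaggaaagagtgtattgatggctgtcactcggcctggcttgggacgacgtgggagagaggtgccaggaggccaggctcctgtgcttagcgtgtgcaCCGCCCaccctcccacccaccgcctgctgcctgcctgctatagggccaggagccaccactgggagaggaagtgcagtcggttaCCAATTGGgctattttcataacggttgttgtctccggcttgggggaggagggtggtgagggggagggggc
Txk upstream start, chr5:72752778-72753027, minus strand: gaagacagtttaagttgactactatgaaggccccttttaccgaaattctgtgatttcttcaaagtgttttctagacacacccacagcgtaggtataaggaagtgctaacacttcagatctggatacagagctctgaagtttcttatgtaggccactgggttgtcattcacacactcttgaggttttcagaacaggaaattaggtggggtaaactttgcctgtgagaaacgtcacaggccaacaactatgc
Txk inner start, chr5:72736603-72736852, minus strand: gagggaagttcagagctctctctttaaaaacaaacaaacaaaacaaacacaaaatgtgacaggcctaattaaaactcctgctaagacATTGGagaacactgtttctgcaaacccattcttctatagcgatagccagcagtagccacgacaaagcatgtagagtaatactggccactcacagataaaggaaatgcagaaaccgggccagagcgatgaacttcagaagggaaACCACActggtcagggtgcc
Capitals mark matches, on either strand, to the letters of 8 motifs: ETS (CCGGAAG), Runx (TGTGGT), AP-1 (TGACTCA), CRE (TGACGTCA), the NFAT core (GGAAAA), the GC box (GGGCGG), the CCAAT box (CCAAT) and the E-box (CACGTG). In Zap70 the CRE letters begin 18, the NFAT core 47 and the CCAAT box 161 bases before the start. The Stim1 sequence holds the GC box 8 times. The upstream Dgkz sequence holds it 3 times and the inner one 1 time, beside 2 CCAAT boxes that overlap each other on opposite strands. In the inner Txk sequence the Runx letters begin 20 and the CCAAT box 163 bases before the start. Ubash3a, Cd247 and the upstream Txk sequence hold none of the 8. The G and C content was 77.6% at the upstream and 62.4% at the inner Dgkz start, and 42.8% and 44.4% at the Txk starts. Over the 48 member sequences, the GC box was present in 52.1%, the CCAAT box in 29.2%, the NFAT core in 16.7%, Runx in 10.4% and the E-box in 6.25%. The shares of 21263 sequences of the same length were 42.6%, 35.4%, 19.8%, 12.4% and 6.63%. The CRE and AP-1 letters were each in 1 member sequence (2.08%; 1.92% and 4.06% of all), and the ETS letters in 0 (8.98% of all). These matches describe letters and not bound sites.

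Summit height, scaled by the mean coverage of each library, gave a different split from the table, whose fold changes lie 0.30 lower than that scaling on the log2 axis. This measure too was added after the data were seen. Of 113 member regions with a summit in all 6 libraries, 26 were higher in every WT library and 31 in every KO library, and 56 overlapped. Over 14580 regions near all genes, 18.5% and 24.2% were separated in those directions. The median log2 ratio of summits was 0.01 in the members and 0.03 in all. At start regions, 7 of 31 were higher in every WT library, those of Zap70, Cd247, Themis, Ubash3a, Stim1, Lat and Was. There were 5 start regions higher in every KO library, at Lcp2, Rasgrp1, the inner start of Dgkz and 2 adjoining regions at Bcl10. At Cd247 the summits were 70.2, 82.2 and 85.8 in WT and 52.0, 49.9 and 54.6 in KO libraries. At Stim1 they were 92.8, 89.9 and 91.6 in WT and 68.7, 70.0 and 72.2 in KO. Both starts were thus lower in KO by either measure. At Cd3e they were 132, 163 and 151 in WT and 161, 154 and 153 in KO, and overlapped, while the best window of that region had -1.12 by the authors' deposited table. Further in at Cd247 the summits went both ways. They were higher in every WT library at 165802051 to 165805500. The region at 165844651 to 165846300 was called lower, with -0.75 by the authors' deposited table. Its summits were 34.3, 32.2 and 33.3 in WT and 36.3, 35.4 and 36.4 in KO. At 165864151 to 165865350, which was not called, they were 14.5, 14.4 and 14.1 in WT and 21.6, 18.8 and 22.9 in KO. With heights on the scaling of the table, 59 regions were separated towards WT and 11 towards KO, and at starts 20 and 1. No share over all regions was taken on that scaling, nor one over all start regions on either. These counts thus give no comparison with other genes. Without WT replicate 1, 11 start regions were separated towards WT in place of 7, and without WT replicate 2 or KO replicate 1, 8 were separated towards KO in place of 5. Such counts can only stay or rise when a library is left out.

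**Figure D5:**
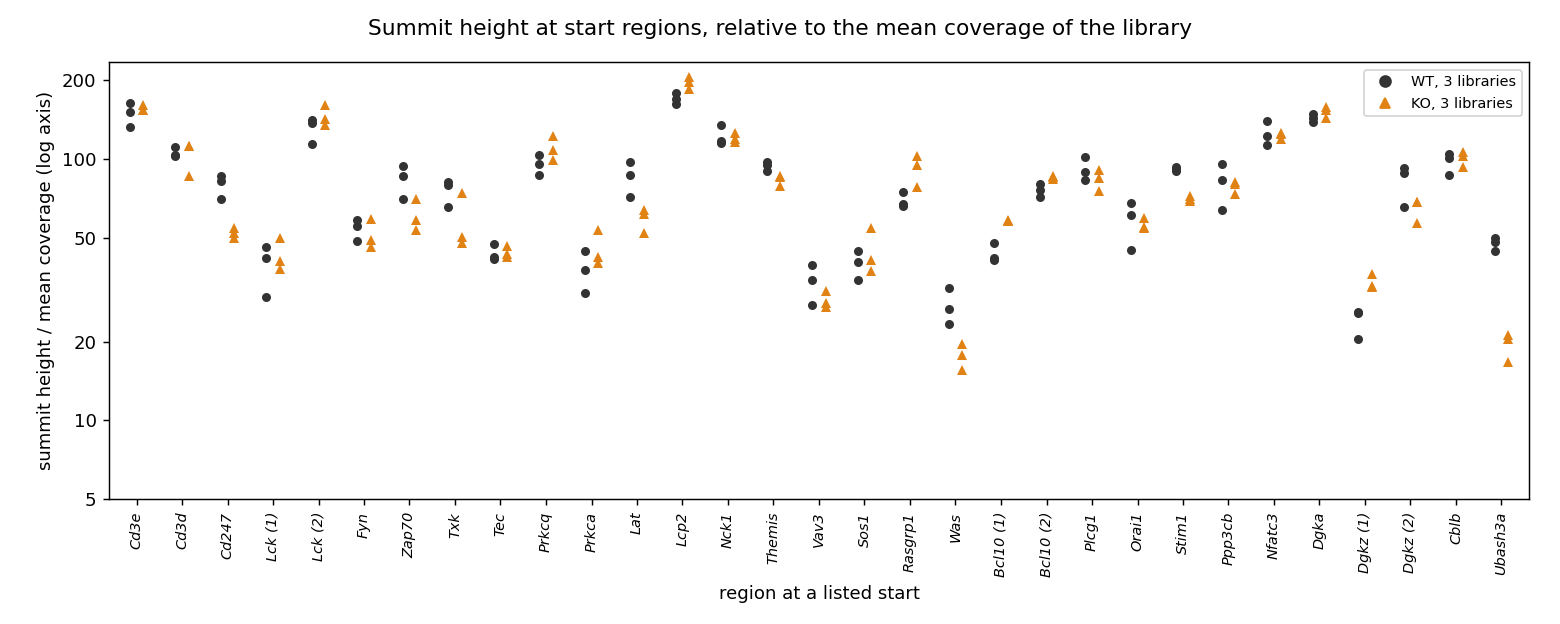
Summit height divided by the mean coverage of the library (log axis) at the 31 start regions with a summit in all 6 libraries, 1 point per library, WT as black circles and KO as orange triangles; numbers in brackets tell apart several regions of a gene, and the region labelled Cd3d also holds the start of Cd3g. WT lies above KO without overlap at 7 regions, Ubash3a among them, and KO above WT at 5.

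Other genes of the receptor pathway, a list of 48 that holds no member, were read in the same way. Of 46 with a gene-end region, 30 (65.2%) were lower and 3 (6.52%) higher by the authors' deposited table, and 13 were not called. These shares are near the 64.3% and 6.4% of all 11625 genes. Csk, the kinase that holds Lck inactive, had -2.73 (FDR 1.31e-13) and the receptor-associated adaptor gene Trat1 -2.59 (FDR 2.04e-13) by the authors' deposited table. The 3 that were higher were the coreceptor gene Cd4, with 6.77 (FDR 3.44e-168), the phosphatase gene Ptprc (CD45), with 0.95 (FDR 0.000373), and the adaptor gene Gab2, with 0.84 (FDR 0.037), by the authors' deposited table. The KO cells carry a Cd4-cre transgene, and the part of the transgene in the Cd4 value was not tested.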

How the data were processed

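H3K9/14ac ChIP-seq peak lists of 3 WT and 3 KO libraries and 1 differential table were used; the 6 input samples were not analysed here. Per the submitters' processing notes, MACS2 2.2.6, Bowtie2 2.3.5.1, cutadapt 2.8, deepTools 3.3.2 and bcl2fastq 2.20.0.422 were used, with GRCm38 (mm10) as the build. Peaks were called for each library, and the lists made from paired-end fragments were used, with those from single reads as an alternative. For a peak the authors deposited a score, the fold enrichment as a linear ratio, and the p-value and q-value as -log10. The authors' deposited table covers 40909 regions built from 150 bp windows and gives the best window's log2 fold change with a p-value and FDR, and how many windows went up or down. It has no value per library, so nothing was refitted. Its program and scaling are not given in the sources used. Negative values stand for lower in KO, as read from the peak lists.

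Spans of called regions came from the deposited list, and those of others from joined windows under the single-read peaks, which rebuilt 98.0% of listed spans exactly. Regions were placed by GRCm38.p6 gene spans and 2 kb windows at their ends; exons were not used here. Peak height in fragments was solved from each deposited fold and -log10 p-value, and the lowest common background was taken as mean coverage; heights were recovered for 100% of peaks within 0.01 of the deposited -log10 p, and the step was tested on simulated data. Against these heights the authors' log2 fold changes lie 0.30 below coverage scaling. Promoter sequences are RefSeq's; all 803 overlapping pairs on opposite strands matched as reverse complements. Library values were compared by exact permutation tests, which reach no p below 0.1. Counts carry no interval for sampling of fragments. Named in full are the lowest and highest called member of each role, members with lower and higher regions, with none called, with more coverage in every KO library, and the 3 with the most regions. Some genes of the other lists are not reported here. The members and lists were chosen with earlier results of these data known. Alternatives were an FDR of 0.01, an absolute log2 change of at least 1, coverage scaling, narrower windows, the widest end region, single-read peaks, -log10 q of at least 5, the 39264 strongest peaks, leaving out each library and a replicate block. Python 3.11.15 with numpy, pandas and scipy was used.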

Additional observations from a re-analysis of the deposited data

How the results depend on the processing

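Of the 124 lower and 24 higher regions, 100 and 14 passed an FDR of 0.01, 70 and 7 had an absolute log2 change of at least 1, 41 and 0 lay at gene ends and 105 and 24 overlapped the span, in the authors' deposited table. Coverage scaling adds 0.30 to every log2 fold change, so no higher region could change sign, and the FDR was not recomputed. The sign changed at 0 of 148 called regions, as every lower call was larger in size than that shift. This does not test the calls. With a change of at least 1, coverage scaling left 43 lower and 20 higher. The 30 lower genes became 27 by the widest end region, 29 within 1 kb, 25 at an FDR of 0.01 and 25 by start region, and no gene was higher in any of these. The start region, the joint use of scaling and size, and all settings for summits were chosen after seeing the data. Coverage separated towards WT at 18 to 22 genes by single-read peaks, stricter peaks, equal peak numbers or 2 kb flanks, and at 20 to 24 without 1 library; towards KO the 1 gene became 3, 3, 2 and 2, and 1 to 3 without 1 library. Summits on the authors' scaling, for which no share over all regions was taken, separated 59 regions towards WT and 11 towards KO (20 and 1 at starts). On coverage scaling without 1 library these were 26 to 38 and 31 to 38, and at starts 7 to 11 (11 without WT replicate 1) and 5 to 8 (8 without WT replicate 2 or without KO replicate 1). Leaving out a library can only keep or raise the counts of separated genes and regions, so these ranges do not test them. In peak coverage, no pairing by replicate number was seen: deviations of same-numbered libraries correlated at -0.01, -0.05 and 0.00. Whether same-numbered libraries were handled together was not tested. With the replicate block, 23 genes had more coverage in WT in all 3 same-numbered pairs, beside 50.2% of all genes with a peak, and 3 had more in KO. Higher summits in those directions were seen at 33 and 39 regions. For these summits, and for the 3 genes with more coverage in KO, no share over all regions or genes was taken. They thus give no comparison with other genes. Fragments below the peak threshold were not analysed here.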
